A study of Schizosaccharomyces pombe with 16 samples.

Results

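The zfs1Δ mutant of the fission yeast Schizosaccharomyces pombe was compared with the wild type by RNA-Seq of total RNA. The comparison used 4 of the 16 libraries of the series, which are all of its zfs1 deletion and wild type libraries, and the other 12 are RNA immunoprecipitation (RIP-Seq) libraries that served here only as a second readout. Wild type cells (strain PN4) and zfs1Δ cells (strain FR434) were each sampled in 2 experiments, in exponential growth at 25°C in the minimal medium EMM. Nothing was added to the cultures. The labels give no genotype beyond PN4 and zfs1Δ, so the deletion allele, its marker and any further allele that the strains carry are not known from the sources used here, nor whether the mutant is a single clone. A table of 7018 transcripts holds 1 normalized count per transcript and library.

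Zfs1 is an RNA-binding protein with a pair of CCCH zinc fingers and belongs to the family of mammalian tristetraprolin (TTP). Proteins of this family bind AU-rich elements in messenger RNAs, typically in the 3′ untranslated region (UTR), and recruit the machinery that removes the poly(A) tail, so that the bound RNA is degraded. In fission yeast, zfs1 is known for its role in mating and in the control of septum formation, and cells without it mate poorly. Mating and meiosis are switched on by Ste11, a transcription factor whose activity is held down in growing cells by the cAMP, TOR and cyclin pathways and promoted by stress and pheromone signalling.

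The AU-rich element that the study names is a nonamer, TTATTTATT in DNA letters. It was searched for on the sense strand of transcripts as RefSeq annotates them on the assembly ASM294v3, and overlapping copies were counted. The sites below show where it lay in transcripts that rose in the mutant, with a pair of contrasting transcripts that fell, and each is printed 5′ to 3′ in the direction of the gene, the nonamer in capitals and 10 bases on each side. In SPBC20F10.03 the copies lay in a pair of separate stretches, each made of overlapping copies, and 1 copy of each stretch is printed. Those of arz1 did not overlap. SPAC1B3.15c carried its copies in the 5′ UTR, and pfl7 and ecl1 carried 1 copy each in the 3′ UTR but fell.
SPBC20F10.03, 3′ UTR (II:3289183-3289211, + strand): cgttctgcctTTATTTATTtatttggtta
SPBC20F10.03, 3′ UTR (II:3289268-3289296, + strand): aaattatttaTTATTTATTtattgaatca
arz1, 3′ UTR (III:2326725-2326753, + strand): ttattgctaaTTATTTATTttttcgatta
arz1, 3′ UTR (III:2326855-2326883, + strand): agtttcatccTTATTTATTaccattaatt
oxr1, 3′ UTR (I:3672077-3672105, - strand): caattgtctaTTATTTATTaattttctct
git11, 3′ UTR (II:4031145-4031173, + strand): gattcaatcgTTATTTATTcatataaaat
mkh1, 3′ UTR (I:613465-613493, - strand): gtcgcaattaTTATTTATTacttagcgtt
SPAC1B3.15c, 5′ UTR (I:4958005-4958033, - strand): agatcttcccTTATTTATTaatattgtgc
tcb1, 5′ UTR (III:541141-541169, + strand): gacatatattTTATTTATTcttatttatt
pfl7, 3′ UTR (II:117914-117942, - strand): gcttacggacTTATTTATTtaattatata
ecl1, 3′ UTR (III:2355267-2355295, - strand): tacggttcgtTTATTTATTtcttcttttc

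The transcript of the deleted gene zfs1 (SPBC1718.07c) still had counts in the mutant, with 10098 and 10660 normalized counts in wild type cells and 6168 and 5866 in the mutant. Both mutant libraries lay below both wild type libraries, and 1 value per transcript cannot show which stretch of it the remaining reads came from. Of the annotated neighbours, msp1, which encodes a mitochondrial dynamin, had a log2 ratio of −0.03 ± 0.07 (SE, n = 2 experiments) and the non-coding SPNCRNA.1603 one of −0.02 ± 0.07, neither past the test. Every SE given for a ratio of mutant to wild type comes from limma, which drew its spread mostly from other transcripts. SPNCRNA.1604 had 26.5 and 33.7 normalized counts in wild type cells and 9.756 and 13.018 in the mutant, too few to be tested. The normalized counts of the 4 libraries summed to between 42446075 and 47945097, and ribosomal RNA took between 2.51% and 4.79% of them, with the lowest share in the wild type and the highest in the mutant library of experiment 1. There were 334 protein-coding transcripts listed at 0 in all 4 libraries. Of these, 165 had at least 100 normalized counts in each of the 6 RIP-Seq inputs, so a value of 0 in this table was read only as listed at 0. The mating types of the strains are not given in the sources used here, and the genes of mating type did not settle them. The M-cell gene mat1-Mc was listed at 0.056 and 4.74 in the wild type and at 0 in both mutant libraries, the M-factor gene mfm2 at 70.8 and 50.01 against 50.9 and 40.1, and map2, which encodes the pheromone of P cells, had 336 and 352 normalized counts in wild type cells and 373 in both mutant libraries. The biosynthetic genes ura4, ade6, his1, his3 and his7, which are common strain markers, did not pass the test in either direction as deposited (ura4 and his3 were lower after centring), and leu1 was lower by a log2 ratio of −0.29.

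Transcripts that rose were more numerous than those that fell on the deposited scale, and about as numerous on a median-centred scale. In the mutant, 1447 (28%) of the 5177 transcripts that averaged at least 1 CPM (1 count in 1000000 of the library total) were higher and 719 (13.9%) lower. The test was limma on the log2 normalized count + 1 with the experiment as a block, and the threshold a Benjamini-Hochberg adjusted p of 0.05. With a change to at least 1.5 or at most 0.66 times the wild type also required, 219 transcripts (4.23%) were upregulated and 144 (2.78%) downregulated, and these words are used below for transcripts past both thresholds. After the libraries were centred on their medians, 1040 (20.1%) were higher, 1011 (19.5%) lower, 163 (3.15%) upregulated and 159 (3.07%) downregulated. With the totals of the libraries made equal, 905 were higher and 1492 lower. Mutant to wild type, the median log2 ratio was 0.09 in experiment 1, 0.01 in experiment 2 and 0.05 in the mean of both as deposited, and centring moved all ratios by a median of −0.06 and equal totals by −0.11. Called under both scalings and past the fold threshold in each experiment alone were 159 upregulated (3.07%) and 113 downregulated (2.18%) transcripts. Both mutant libraries lay above both wild type libraries for 47.9% of the transcripts tested and below them for 26.9%. With 2 libraries a strain, an exact permutation test of a single transcript cannot go below p = 0.333 (two-sided), and each transcript leaves 1 residual degree of freedom, so the spread that limma used came mostly from other transcripts (17.8 prior degrees of freedom).

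**Figure D1:**
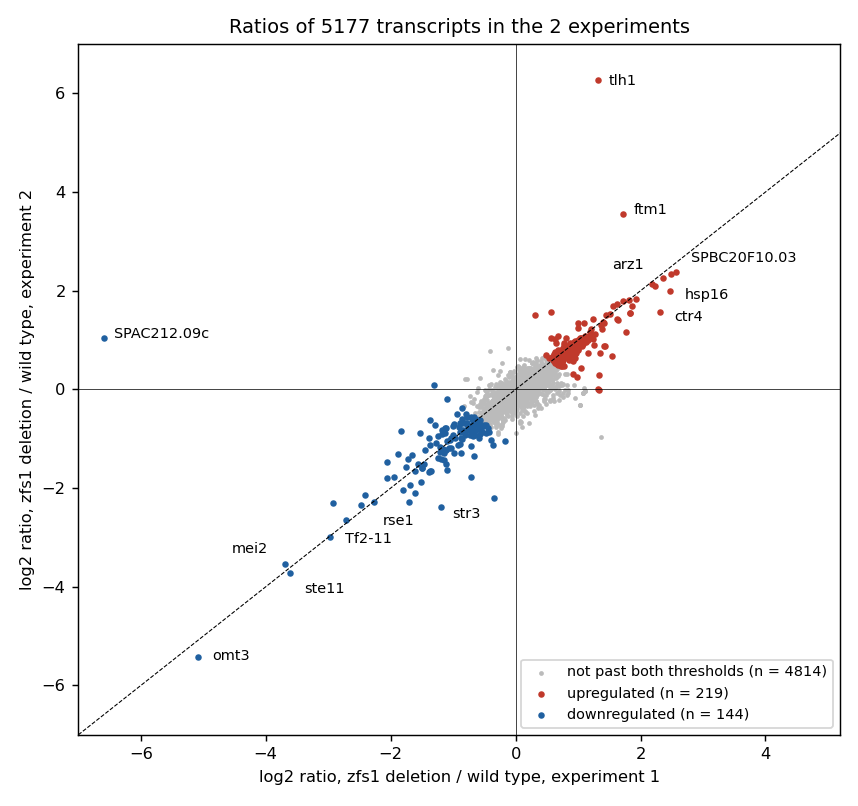
Log2 ratio of zfs1 deletion to wild type in experiment 1 (x axis) and experiment 2 (y axis), on log2 of the normalized count + 1, for 5177 transcripts. Each point is 1 transcript, red points are the 219 upregulated and blue points the 144 downregulated transcripts, and the dashed line marks equal ratios. Most named transcripts lie near that line, while tlh1, ftm1, str3 and SPAC212.09c lie away from it.

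About as many transcripts rose as fell by at least 2 times, but the RNA classes differed between the directions. At least 4 times higher were 8 transcripts, all protein-coding, and at least 2 times higher were 60, of which 56 were protein-coding and 4 long non-coding RNAs (lncRNAs). At least 2 times lower were 63 transcripts, of which 41 were protein-coding and 17 lncRNAs, and 10 were at least 4 times lower. The 2 experiments gave the same sign for 4097 of the 5177 transcripts (79.1%). The log2 ratio of either experiment lay 0.04 from the mean of both in the median transcript and 0.18 at the 95th percentile.

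The largest rises whose experiments were alike were those of uncharacterized or little studied genes. SPBC20F10.03 had 974 and 1059 normalized counts in wild type cells and 5811 and 5482 in the mutant, 5.55 times the wild type. Its log2 ratio was 2.47 ± 0.07 (SE), with a limma adjusted p of 1.03e-15 as deposited and of 0.0048 after centring. Its annotated 3′ UTR held 5 copies of the nonamer, the ones printed above among them. The gene arz1, which encodes an armadillo repeat protein already known as a Zfs1 target, had 1411 and 1455 in wild type cells and 7220 and 6994 in the mutant, 4.96 times the wild type, and held 3 copies. In both genes the mutant libraries stood far above the wild type and the replicates lay close together. SPAC1B3.15c, annotated as a vitamin H (biotin) transporter, had 1132 and 1220 against 5312 and 5225, 4.48 times, with 2 copies in the 5′ UTR and none in the 3′ UTR. The transcript of oxr1, annotated as an inhibitor of the vacuolar proton pump, had 481 and 513 against 1701 and 1806, 3.53 times, with 1 copy in the 5′ UTR and 2 in the 3′ UTR. All 4 of these transcripts were rich in the Zfs1-TAP IP, an immunoprecipitation that the deletion comparison does not use. Their mean log2 ratio of IP to input over 3 experiments was 3.88 ± 1.13 (SD) for SPBC20F10.03, 5.13 ± 0.89 for arz1, 4.56 ± 1.27 for SPAC1B3.15c and 4.58 ± 0.77 for oxr1, and between −0.80 and 0.85 in the GFP-TAP mock IP.

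Other large rises came from transcripts without the nonamer in their annotated sequence. The gene lsd90 had 588 and 611 normalized counts in wild type cells and 3291 and 3079 in the mutant, 5.31 times, and SPBC428.10 had 2003 and 2089 against 9085 and 9197, 4.47 times. No UTR is annotated for lsd90, so only its coding sequence was searched, and ctr4 and SPAC27D7.09c, described next, have no annotated 5′ UTR. Both lsd90 and SPBC428.10 were rich in the Zfs1 IP, with mean log2 ratios of 2.93 ± 1.24 and 3.23 ± 1.13 (SD, n = 3). The next 5 had IP ratios below 0. The median IP ratio of all protein-coding transcripts tested was −0.47, so ctr4 lay above it and SPCC1235.01 near it. That median was −1.51, 0.135 and 0.025 in experiments 1, 2 and 3, so the experiments differed for most transcripts. The small heat shock protein gene hsp16 had 825 and 1113 against 4577 and 4414, 4.69 times, and its log2 Zfs1 IP/input ratio was −2.50 ± 1.12. The gene of the copper transporter subunit Ctr4 had 1847 and 3291 against 9187 and 9722, 3.83 times, with an IP ratio of −0.28 ± 0.86, and the partner subunit gene ctr5 had 1128 and 1789 against 3848 and 3998, with an IP ratio of −1.69 ± 0.44. Both copper transporter genes differed more between the wild type libraries than between the mutant libraries. SPCC1235.01, an abundant transcript of unknown function, had 46061 and 47117 against 152071 and 162968, 3.38 times, with an IP ratio of −0.53 ± 1.22. SPAC27D7.09c, of the But2 family, had 4561 and 4894 against 17283 and 17324, with an IP ratio of −1.42 ± 1.09.

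**Figure D2:**
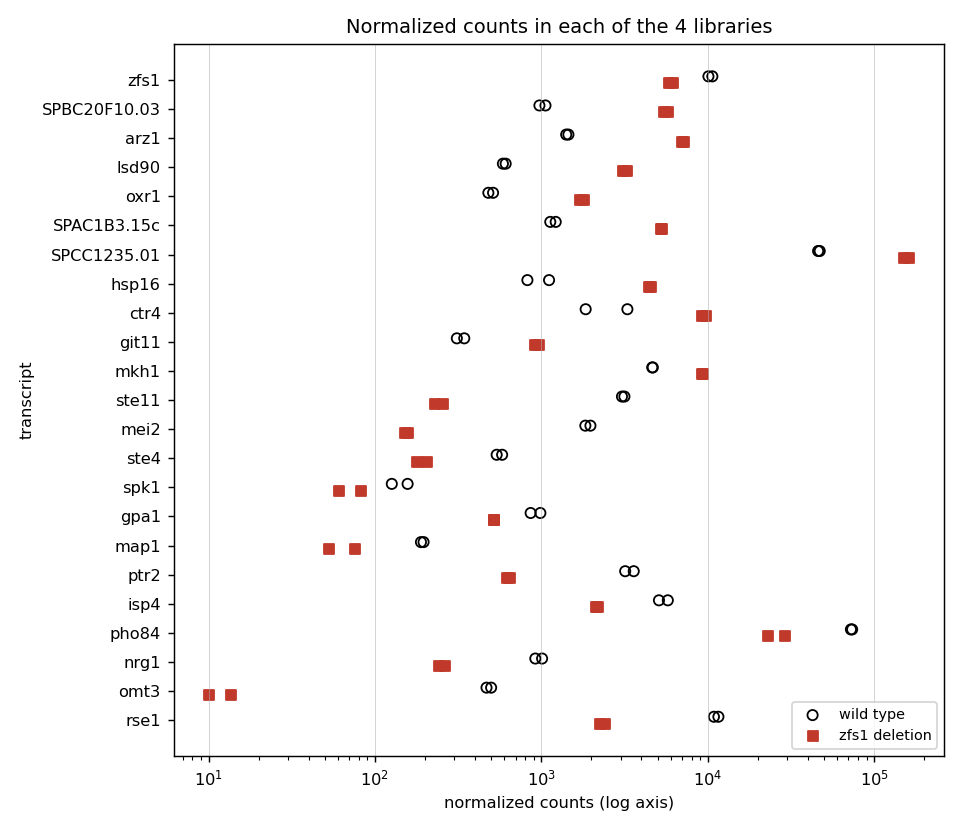
Normalized counts (x axis, log scale) of zfs1, 10 transcripts that rose and 12 that fell, in each of the 4 libraries. Open circles are the 2 wild type and red squares the 2 zfs1 deletion libraries. The wild type and mutant libraries do not overlap for any transcript drawn, and ctr4 in the wild type and map1 in the mutant show wide spreads within a strain.

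The share of upregulated transcripts grew with the number of nonamers, most of all in the 3′ UTR. Among 4247 protein-coding transcripts with no copy in the 3′ UTR, those without an annotated 3′ UTR included, the median log2 ratio was 0.05 and 2.78% were upregulated. Among 224 with 1 copy the median was 0.36 and 25.4% were upregulated, and among 40 with 2 or more it was 0.70, with 57.5% upregulated and none downregulated. In the 5′ UTR the median went from 0.05 with no copy (4392 transcripts) to 0.26 with 1 (103) and 0.54 with 2 or more (16), and the upregulated share from 3.96% to 16.5% and 43.8%. In the coding sequence 1 copy went with a median of 0.20 (162 transcripts) and 6.17% upregulated, close to the 4.26% without a copy, while 3 of the 9 transcripts with 2 or more copies were upregulated. The order of these medians was the same in each experiment. Transcripts share sequence composition and length, so these shares describe the transcriptome and carry no p-value.

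**Figure D3:**
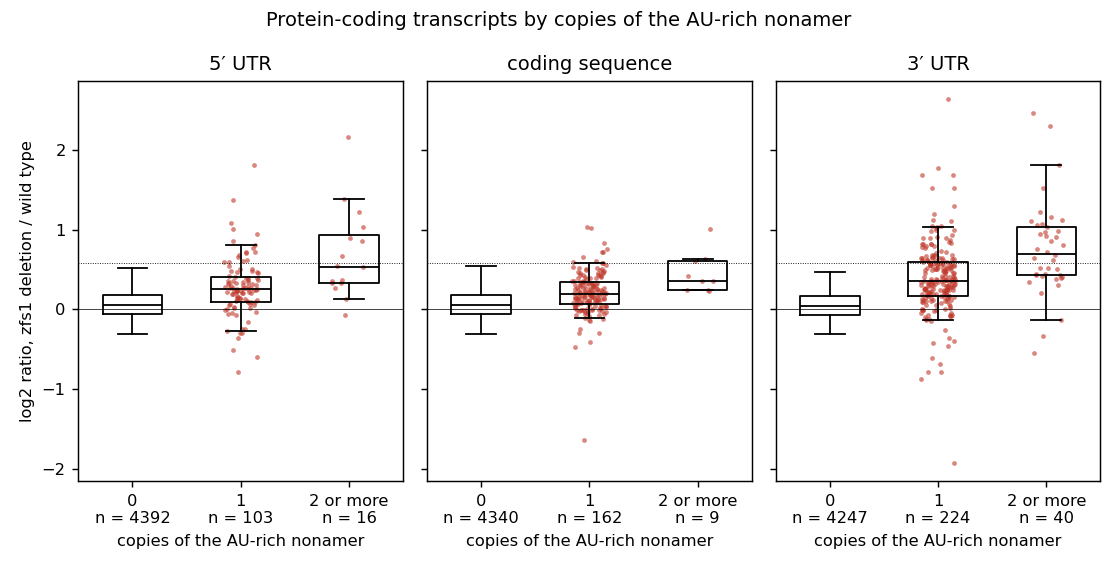
Log2 ratio of zfs1 deletion to wild type (y axis, mean of 2 experiments) of protein-coding transcripts with 0, 1 or at least 2 copies of the AU-rich nonamer (x axis) in the 5′ UTR, coding sequence and 3′ UTR. Boxes span the quartiles with the median as a line, whiskers reach the 5th and 95th percentiles, points are transcripts with a copy, and the dotted line is 1.5 times the wild type. The median rises with the number of copies in all 3 panels, to 0.70 for 2 or more in the 3′ UTR.

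The transcripts that rose and those that fell also differed in what the deletion comparison did not measure. A nonamer anywhere in the annotated transcript was found in 110 of 198 upregulated protein-coding transcripts (55.6%), in 8 of 77 downregulated ones (10.4%) and in 531 of all 4511 tested (11.8%). The deleted gene zfs1, which holds 1 copy in each UTR, is among those 8 and is kept in the downregulated group throughout. The median log2 Zfs1 IP/input ratio was 2.32 in the upregulated, −0.24 in the downregulated and −0.47 in all protein-coding transcripts tested, against 0.16, 0.01 and 0.08 in the mock IP. Of 393 protein-coding transcripts with a nonamer and a mean log2 IP ratio of at least 1, 100 were upregulated (25.4%). With the IP ratio but no nonamer, 51 of 473 were upregulated (10.8%), with the nonamer but not the IP ratio 9 of 137 (6.57%), and with neither 24 of 3475 (0.691%). Shares of downregulated transcripts lay between 0.73% and 1.78% in the 4 classes. Upregulated protein-coding transcripts had a median annotated 5′ UTR of 142.5 bases, against 91 in the downregulated and 87 in all tested, and 71.7% of them had a single exon, against 85.7% and 50.2%. The RIP-Seq table was normalized apart from the RNA-Seq table, and no level was compared between them.

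Genes that hold back entry into the sexual programme were among those that rose. The list of RNAs that earlier work tied to Zfs1 had all 4 members upregulated, at a median log2 ratio of 1.23. This describes genes chosen for that behaviour, and puc1, whose RNA was known to be bound by Zfs1, was also singled out by the study on these samples. Apart from arz1 these were ecl3, a gene that extends chronological lifespan (91.4 and 112 normalized counts in wild type cells, 217 and 303 in the mutant, not called without replicate 1 of the wild type, limma adjusted p = 0.0604), cbf12, a transcription factor of the CSL family (1400 and 1399 against 2788 and 3308), and puc1, a G1 cyclin (1248 and 1351 against 2125 and 2142). Of 18 cAMP and PKA pathway members tested, 7 were higher and 2 lower, with 3 upregulated and 1 downregulated, where 28% of all transcripts tested were higher, 13.9% lower, 4.23% upregulated and 2.78% downregulated. These shares over all transcripts are the background for every list below. The G protein gamma subunit gene git11 had 311 and 344 against 966 and 919, 2.88 times. The catalytic subunit gene pka1 had 4537 and 4554 against 8484 and 8205 (log2 ratio 0.88 ± 0.07), and the adenylate cyclase gene cyr1 9089 and 9675 against 14610 and 14655 (0.64 ± 0.07). The glucose receptor gene git3 was the member that fell past the threshold, with 4246 and 4298 against 2739 and 2617. After centring, cyr1 was at 0.58, below the fold threshold.

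Some cell cycle and TOR genes were higher, by smaller amounts. Of 17 TOR pathway members tested 10 were higher and none lower, all 17 had a positive ratio on the deposited scale but 14 after centring and 12 at equal totals, and the median was 0.22 against 0.05 over all transcripts. Only pdk1, a kinase gene, was past 1.5 times, at a log2 ratio of 0.59 (0.52 after centring), and gad8, the kinase downstream of TORC2, was at 0.57 ± 0.07. Of 20 cyclins and Cdc2 regulators 14 were higher and none lower (median 0.24), and 4 were upregulated, namely psl1 and pef1 of the Pho85 group (0.90 and 0.61), puc1 (0.72) and the S-phase cyclin gene cig2 (0.64). After centring, 12 were higher and 2 lower, and pef1 and cig2 fell below the fold threshold. All 9 septum separation genes tested were higher, before and after centring, at a median of 0.38. They included the transcription factor gene sep1 (0.43) and the glucanase genes agn1 (0.42) and eng1 (0.32), and adg2 (0.63) was past the fold threshold on the deposited scale alone. Of 14 genes of the septation initiation network 6 were higher and none lower, with cdc14 (0.61) and the spindle pole protein gene ppc89 (0.60) upregulated as deposited but not after centring. The transcript of cdc14 was low and differed between experiments, with 61.7 and 77.6 normalized counts in wild type cells and 122 and 92.1 in the mutant.

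Stress genes were higher in part. Of 25 core stress effectors tested 14 were higher and 3 lower (median 0.25), with 6 upregulated. Besides hsp16 these were ish1 (1.09), hsp9 (1.08), the trehalose phosphatase gene tpp1 (1.03), the glycerol phosphate dehydrogenase gene gpd1 (0.93) and uvi15 (0.63, and 0.56 after centring). The transcript of hsp9 had 11331 and 12041 normalized counts in wild type cells and 24508 and 24770 in the mutant. The superoxide dismutase gene sod1 fell, from 42852 and 40151 to 26957 and 22517. In the Sty1 stress kinase cascade 10 of 23 were higher and 1 lower (28% and 13.9% of all transcripts), led by the RNA-binding protein gene csx1 (4624 and 5132 against 8567 and 9681) and the phosphatase gene ptc2 (0.64). In the Pmk1 cell integrity pathway 8 of 15 were higher and 1 lower, led by the kinase gene mkh1, whose counts of 4639 and 4679 in wild type cells and 9297 and 9370 in the mutant gave a log2 ratio of 1.00 in both experiments. The single nonamer of mkh1 is printed above.

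**Figure D4:**
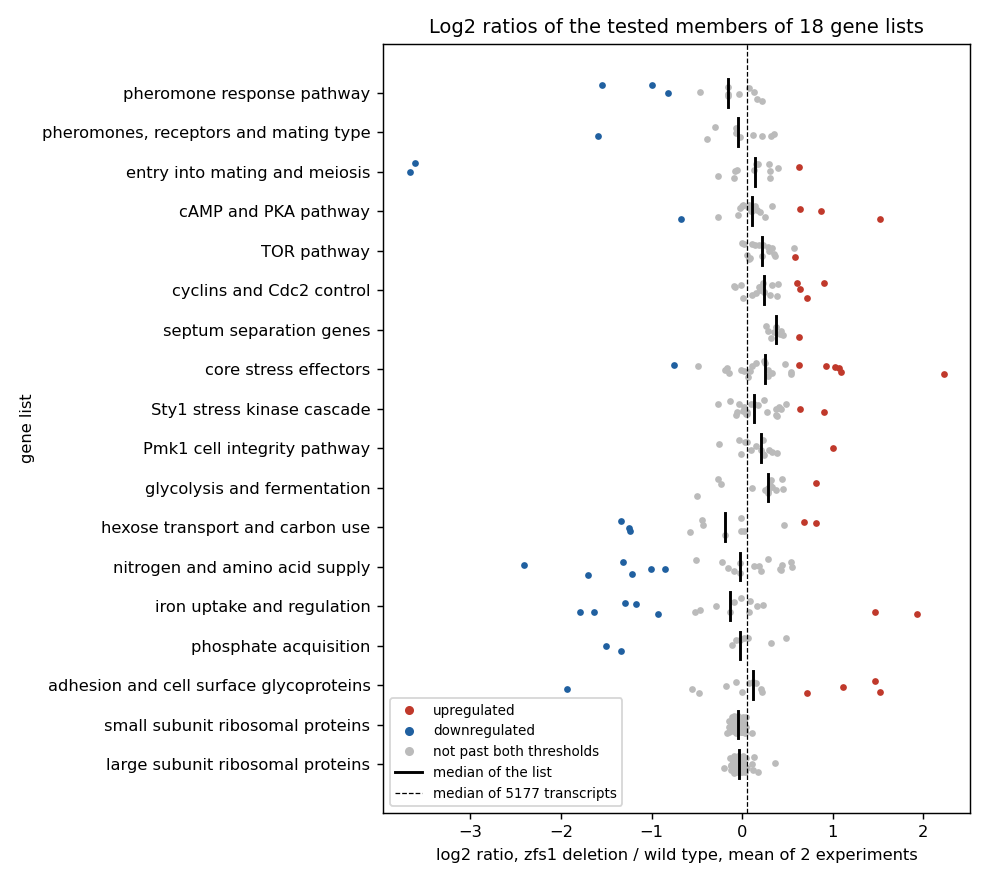
Log2 ratios of zfs1 deletion to wild type (x axis, mean of 2 experiments) of the tested members of 18 gene lists (y axis). Each point is 1 gene, red points were upregulated and blue points downregulated, the black bars are the medians of the lists and the dashed line is the median of 5177 transcripts. On this deposited scale the septum separation and TOR lists lie wholly to the right of 0, 3 of the TOR genes falling below it after centring, and the pheromone response, nitrogen and iron lists hold most of the blue points drawn.

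Among protein-coding transcripts the deepest falls were those of a pair of genes that start mating and meiosis. The transcript of ste11, the master transcription factor of sexual differentiation, had 3158 and 3053 normalized counts in wild type cells. The mutant had 257 and 229, 0.0785 times the wild type (log2 ratio −3.67 ± 0.07, limma adjusted p = 1.27e-18 as deposited). After centring, the adjusted p of ste11 (limma) was 0.0048, so the size of the p-value depended on the scaling. The gene mei2, which encodes the RNA-binding protein needed for entry into meiosis, had 1973 and 1839 against 152 and 157, 0.0818 times (−3.61 ± 0.07). Both genes were many times lower in each mutant library and the replicates were close. They stood apart within their own list, in which 5 of 14 genes tested were higher and 3 lower. The RNA-binding protein gene msa1 rose there, at 0.63 (0.56 after centring). The ste11 transcript was rich in the Zfs1 IP, at a mean log2 IP/input of 3.10 ± 0.70 (SD, n = 3), and held no nonamer, and that of mei2 was at 0.95 ± 0.69.

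Pheromone signalling genes fell in part. Of 12 tested 1 was higher and 4 lower, with 3 downregulated (13.9% and 2.78% of all transcripts were lower and downregulated), and the median was −0.15. The MAP kinase cascade adaptor gene ste4 had 581 and 539 normalized counts in wild type cells and 205 and 178 in the mutant (−1.54 ± 0.07), and gpa1, the G protein alpha subunit that pheromone receptors act through, had 863 and 987 against 522 and 521 (−0.82 ± 0.07). The MAP kinase gene spk1 had 157 and 126 against 60.5 and 82.1, so that the log2 ratio was −1.36 in experiment 1 but −0.62 in experiment 2, and it was not called after centring. The MAP kinase kinase gene byr1 was too low to be tested, with 49.6 and 60.7 in wild type cells and 9.80 and 5.01 in the mutant. The kinase gene byr2 (0.16), ras1 (−0.16) and fus1 (−0.03) did not pass the test as deposited, and ras1 was lower after centring (−0.22). Of 10 genes for pheromones, receptors and mating type 3 were higher and 3 lower. The P-cell transcription factor gene map1 was the one downregulated, from 196 and 189 to 52.7 and 76.1, while map4, an agglutination gene, and sxa1, a protease gene, were higher by 0.32 and 0.35.

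Ste11 is known to bind the TR box upstream of the genes that it activates. The core TTCTTTGTT was searched for on both strands of the 500 bases before each annotated transcript start. These windows lie outside the gene's own transcript but were not trimmed at neighbouring ones, and overlap with the AU-rich nonamer was not counted. The core was found before 4 of 77 downregulated protein-coding transcripts (5.19%), 2 of 198 upregulated ones (1.01%) and 117 of all 4511 tested (2.59%). The 4 downregulated transcripts were ste11, mei2, ste4 and spk1, and all of their sites are printed, each on the strand of the box with the core in capitals. The last 2 of spk1 lie on the strand opposite to the gene. The sites shown for mei2 lie 129 and 151 bases before its annotated start, and that of ste11 118 bases before its own.
ste11 (II:3983239-3983267, + strand): aaagttgaatTTCTTTGTTtgattttcat
mei2 (I:4515145-4515173, - strand): attttaaagtTTCTTTGTTttacaaaccc
mei2 (I:4515167-4515195, - strand): gccgaccgatTTCTTTGTTcctattttaa
ste4 (I:1296579-1296607, - strand): tgagtatgctTTCTTTGTTataaaagtag
spk1 (I:3001550-3001578, - strand): caaagaaactTTCTTTGTTattgtaagtt
spk1 (I:3001562-3001590, + strand): caaagaaagtTTCTTTGTTaatgtattgc
spk1 (I:3001687-3001715, + strand): gtcgcgcataTTCTTTGTTtacactaact

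The lists for nitrogen and amino acid supply, phosphate acquisition and iron held 6, 2 and 5 of the 144 downregulated transcripts. Of 21 nitrogen and amino acid supply genes 8 were higher and 8 lower, with none upregulated and 6 downregulated. The peptide transporter gene ptr2 had 3592 and 3192 normalized counts in wild type cells and 648 and 625 in the mutant (−2.41 ± 0.07), the amino acid transporter gene isp5 2626 and 2518 against 922 and 681, and the oligopeptide transporter gene isp4 5093 and 5757 against 2143 and 2193. The glutamate dehydrogenase gene gdh2 had 13293 and 13744 against 5971 and 5636. The ammonium transporter gene amt1 was higher by 0.43 and the transporter genes put4 and fnx1 by 0.54 and 0.56, so the list moved in both directions. The phosphate transporter gene pho84 had 72520 and 73790 against 22887 and 29309, and the acid phosphatase gene pho1 34152 and 36319 against 12434 and 15572. Both were downregulated, while vtc4, a polyphosphate polymerase subunit, was higher by 0.49.

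Iron and carbon genes divided in the same manner. Of 17 iron genes 4 were higher and 8 lower. The downregulated ones were str3 and str1 (siderophore transporters), abc3 (a vacuolar transporter) and the partners fio1 and fip1 of reductive iron uptake. The transcript of abc3 had 5786 and 5360 normalized counts against 1897 and 1691, and fio1 had 14941 and 12587 against 6906 and 5344. The log2 ratio of str3 was −1.19 in experiment 1 and −2.38 in experiment 2, so its size depended on the experiment. The 2 upregulated members of the list are the copper transporter genes ctr4 and ctr5. Of 13 hexose transport and carbon genes 3 were higher and 7 lower. The high-affinity glucose transporter gene ght1 had 343 and 352 against 148 and 145, and ght3 229 and 227 against 87.9 and 104. The glucose transporter gene ght2 had 12621 and 12854 against 22329 and 22487, and the malate transporter gene mae1 was higher by 0.69. Of 16 genes of glycolysis and fermentation 12 were higher and 3 lower (median 0.29), with tdh1 at 0.44, pfk1 at 0.46 and gpd3, at 0.82, the member past 1.5 times. Genes listed for adhesion and cell surface glycoproteins moved both ways. The upregulated ones were pfl8 (173 and 159 against 497 and 463), pfl9 (309 and 292 against 842 and 830), gsf2 (0.72) and the transcription factor gene cbf12. The one downregulated was pfl7, from 433 and 356 to 103.6 and 101.1.

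The families that follow were singled out after their values were seen. All 3 tricalbin genes, whose proteins tether the endoplasmic reticulum to the plasma membrane, were upregulated. The counts of tcb1 were 13900 and 14304 in wild type cells and 36730 and 36813 in the mutant, and the log2 ratios were 1.38 for tcb1, 1.30 for tcb3 and 0.86 for tcb2. The eisosome genes pil1 (46877 and 48438 against 120486 and 119869), fhn1 (1.38) and eis1 (0.91) were upregulated too. Of 7 nucleotide excision repair genes tested 5 were higher and 3 upregulated, namely rhp7 (1.07), rhp26 (0.97) and rhp42 (0.65), with 3, 2 and 3 nonamers in the 3′ UTR, and the arrestin genes rod1 (1.04) and art1 (0.91) rose while any1 (0.13) and any2 (0.04) did not pass the test. Of 22 wtf genes tested, a family of spore killer genes, 15 were lower and 1 higher (median −0.33), with 4 downregulated, of which 2 were also called after centring. Members of this family are near-identical in part, so their values are uncertain. Of 79 tested genes with mug or meu names, given for raised expression in meiosis, 23 were higher and 20 lower, with 4 upregulated and 7 downregulated.

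LncRNAs were downregulated more often than protein-coding transcripts. Of 588 lncRNAs tested 15 were upregulated (2.55%) and 57 downregulated (9.69%), against 198 (4.39%) and 77 (1.71%) of 4511 protein-coding transcripts. They were also less precise, with a median deviation of the log2 ratio between experiments of 0.0904 against 0.0398. Among transcripts that averaged at least 10 CPM, 8 of 83 lncRNAs (9.64%) and 47 of 3987 protein-coding transcripts (1.18%) were downregulated. The share was 18.6% (26 of 140) among lncRNAs that overlapped no protein-coding transcript, 5.8% (21 of 362) among those with an overlap on the opposite strand alone and 11.6% (10 of 86) among those with one on the same strand. The libraries kept strand, and the study's methods give a strand-specific mode for the counting.

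The most reduced RNA of the table was omt3 (SPNCRNA.130), with 499 and 468 normalized counts in wild type cells and 13.7 and 10.016 in the mutant, 0.0263 times the wild type (−5.25 ± 0.08). It lies on chromosome I from 4516070 to 4517070 (ASM294v3), on the strand opposite to mei2, which starts about 1 kb away. SPNCRNA.993, which lies between omt3 and mei2, had 60.1 and 52.1 against 12.7 and 8.01 and was too low to be tested, while omt2, on the other side of omt3, did not pass the test as deposited (−0.14 ± 0.07) and was lower after centring (−0.21). A second such pair lies at ste11. The lncRNA rse1 (SPNCRNA.111, chromosome II from 3978331 to 3982106, minus strand) starts 1269 bases from the start of ste11 on the other strand, and had 11592 and 10899 against 2398 and 2248, 0.207 times. The gene cyc3, which rse1 overlaps on the opposite strand, was at −0.06 ± 0.07, and ppk25, past the other end of ste11, at −0.08 ± 0.07 (lower after centring, at −0.15). On the side of rse1 away from ste11, the4 was lower, though not past the fold threshold. It had 2890 and 3283 against 1922 and 2399 (log2 ratio −0.52). SPNCRNA.1255 fell from 101.3 and 125 to 14.6 and 19.03, and its neighbour wtf20 was also downregulated (−0.68). Of the non-coding RNAs that rose, SPNCRNA.1115 (6731 and 6854 against 20805 and 22655) overlaps SPCC1235.01 on the same strand, and their reads cannot be told apart here.

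Ribosomal RNAs and small structured RNAs were higher in experiment 1 alone. The median log2 ratio of 11 ribosomal RNA entries was 1.07 in experiment 1 and −0.07 in experiment 2, that of 19 small nucleolar RNAs 0.47 and 0.02, and that of 3 spliceosomal RNAs 0.60 and −0.11. After centring, none of these entries was upregulated. The 11 ribosomal RNA entries include copies with identical values, so they hold fewer separate measurements than entries. The retrotransposon copy Tf2-11 fell from 1670 and 1699 to 213.1 and 212.3, while Tf2-5, Tf2-6 and Tf2-12 had identical values (4264 and 4391 against 5898 and 5844) and cannot be told apart.

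Position along the chromosomes went with the direction of change. Within 50 kb of an end of chromosome I or II, 18 of 29 transcripts tested were upregulated (62.1%) and 1 downregulated. Between 50 and 100 kb 8 of 53 were upregulated (15.1%) and 19 downregulated (35.8%), between 100 and 200 kb 5 and 13 of 153, and beyond 200 kb 3.57% and 1.95% of 3951. After centring, the counts were 15 and 0 within 50 kb and 5 and 19 between 50 and 100 kb. Transcripts near these ends were low, with a median wild type level of 2.09 CPM per kb of transcript within 50 kb. The median was 12.5 between 50 and 100 kb and 29.9 beyond 200 kb. On chromosome III, whose assembly begins and ends in ribosomal RNA genes, 2 of 40 within 50 kb were upregulated, both of them ribosomal RNA entries that rose in experiment 1 alone, and 8 downregulated. Between 50 and 100 kb of its ends 1 of 43 was upregulated and 2 downregulated, and between 100 and 200 kb 11 and 1 of 81. The distances come from the ASM294v3 assembly and the limits of the bins were set after the pattern was seen.

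Many transcripts at the outermost ends belong to repeated families. The transmembrane protein genes ftm5 (1544 and 1686 normalized counts against 5500 and 4902) and SPBPB2B2.19c (1448 and 1565 against 5146 and 4590) had nearly the same values, and their near-identical sequences could share reads. Another gene of that family, ftm1 (893 and 216 against 2947 and 2564), and the helicase gene tlh1 (178 and 3.97 against 446 and 384), differed widely between the wild type libraries, and tlh1 was not called after centring. The transcript downregulated within 50 kb was the pseudogene SPAC212.09c, with 95.7 and 62.9 against 0 and 130, so its log2 ratios had opposite signs in the experiments. In the zone from 50 to 100 kb pho84, pho1, str3, ght3, the sulfate transporter gene sul2 (15317 and 14737 against 7717 and 6024), the basic amino acid transporter gene cat1 (4981 and 5101 against 2817 and 2789) and the amino acid permease gene nrg1 (921 and 1011 against 262 and 244) fell. The glycoprotein genes pfl8 and pfl9 and ecl3 lie there too and rose. The fluoride channel genes fex1 and fex2, also in this zone, were at 0.62 each and below the fold threshold after centring.

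**Figure D5:**
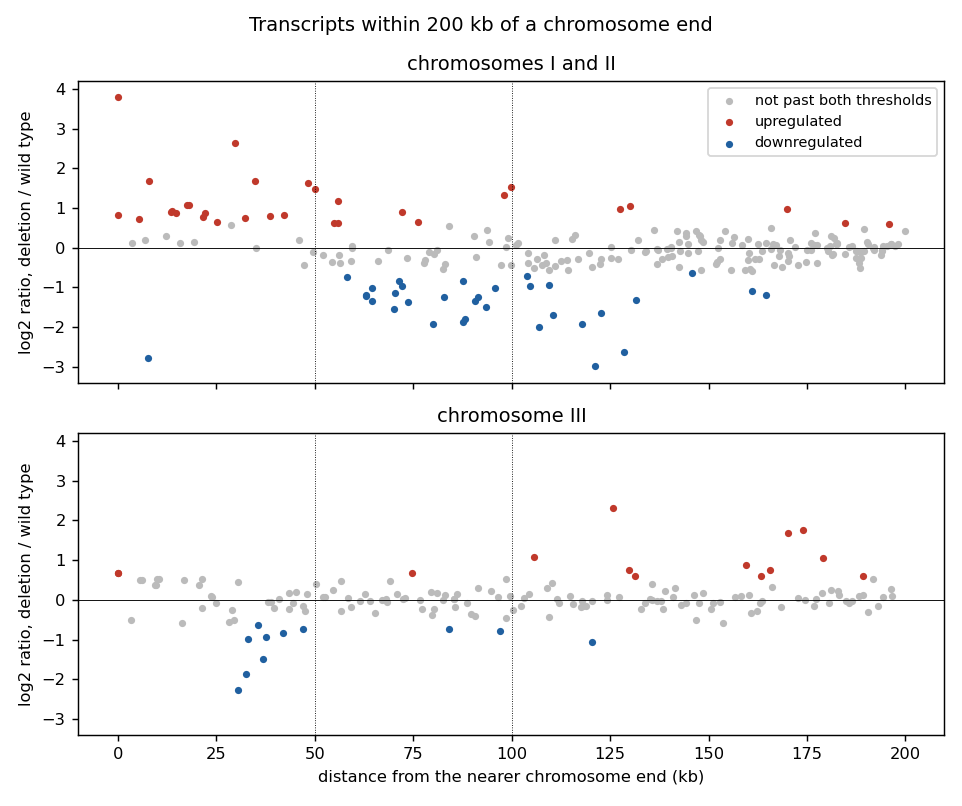
Log2 ratio of zfs1 deletion to wild type (y axis, mean of 2 experiments) against the distance from the nearer chromosome end in kb (x axis), for tested transcripts within 200 kb of an end of chromosomes I and II (top) and chromosome III (bottom). Red points were upregulated, blue points downregulated and grey points neither, and dotted lines stand at 50 and 100 kb. In the top panel 18 of the 29 points within 50 kb are red, and between 50 and 100 kb 19 of 53 are blue.

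Other groups moved little. None of 45 tested genes for small ribosomal subunit proteins passed the test (limma) on the deposited scale, where their median log2 ratio was −0.04 and their range −0.16 to 0.12. Of 74 genes with names of large subunit proteins, 1 was lower and 2 were higher, and these 2 are rpp1 and rpp21, subunits of RNase P or RNase MRP that share the name pattern. After centring, 10 small subunit genes and 9 of the large subunit list were lower, none past the fold threshold. Of 23 genes of the mRNA decay machinery 7 were higher and 1, zfs1, lower (3 and 1 after centring), a share of higher genes near the 28% of all transcripts. They included dcp1 (0.48) and pdc1 (0.45) of the decapping machinery. Among RNA interference and heterochromatin genes 4 of 20 were higher, led by chp1 (0.52) and clr4 (0.33), and none was lower, against 3 higher and 1 lower after centring. Of 12 actin and tubulin genes 3 were higher, by at most 0.33, and none of the 10 mitochondrially encoded transcripts tested was past a fold threshold. Of 9 transcripts that Mmi1 is known to remove during growth 3 were higher and 2 lower, with mei4 at 0.39 and mcp7 at −0.51.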

How the data were processed

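RNA from 4 cultures was depleted of ribosomal RNA, and 100 bp paired ends were sequenced with strand information and counted by strand. The authors mapped reads with Bowtie 0.12.7, estimated counts with RSEM 1.1.19 against a PomBase annotation and normalized them with edgeR. The deposited values are therefore a signal in normalized counts, not whole reads, and their depth in reads is not known. RIP-Seq values were made in the same way in a separate table. Values under 1e-10 were set to 0, transcripts averaging at least 1 CPM were kept, and log2 of the value + 1 was fitted with limma 3.58.1 (R 4.3.3), strain as the effect and the experiment as a block, as in the authors' paired design. The fold change of a low transcript is understated on this scale. The p-values rest on the spread between the 2 experiments, pooled mostly over transcripts.

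Of the 7018 transcripts, 6859 were matched to ASM294v3 by identifier. The build of the authors' annotation is not given in the sources used here beyond its download date, and UTRs may differ from it. No promoter or protein tables were used. Named were zfs1 and its neighbours, the 15 protein-coding transcripts with the largest rise and fall past both thresholds under both scalings and in each experiment, the 5 non-coding RNAs likewise, and up to 4 members of each gene list, from which those printed were drawn. Families and single genes outside this rule were named after their values were seen. The comparison, the lists and the alternatives were chosen with earlier results of these data known. One member of a gene list is not reported here by name. Alternatives changed the scaling, filter, pseudocount, variance model, block and libraries.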

Additional observations from a re-analysis of the deposited data

How the results depend on the processing

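The values of 131 transcripts with a test named in the text were followed over 15 alternatives. A value was counted as kept if a called transcript kept its call and direction, or an uncalled one stayed uncalled in either direction. With 1 experiment alone no test was possible, and only a called transcript that changed direction was counted as changed. Of 1947 values 1841 were kept, 82 kept the direction but lost the call, 22 gained a call and 2 reversed. The 2 were those of SPAC212.09c, at 1.04 without replicate 1 of both strains and at 0.74 (adjusted p = 0.065, limma) without replicate 1 of the mutant, while without replicate 2 of both strains it was at −6.60. Equal totals gave 905 higher and 1492 lower transcripts, and equal totals without ribosomal RNA gave 881 and 1239. With no filter on the level, 246 were higher and 166 lower, while 203 were upregulated and 156 downregulated, of which 178 and 99 were among those called with the filter. That alternative took the call from 35 named transcripts, among them ctr4 (adjusted p = 0.0518), ctr5 (0.0535), map1 (0.0508), spk1 (0.103), str3 (0.0896), ftm1 (0.0922), pdk1 (0.0517) and gad8 (0.0518), and the cause was not tested. With a mean of at least 10 CPM, where 4112 transcripts were tested, 403 were lower and 57 downregulated. Leaving out each library in turn without the block, higher transcripts numbered 635 to 1140, lower 306 to 535, upregulated 186 to 251 and downregulated 125 to 159. The lowest count of higher transcripts came without replicate 1 of the wild type, which also took the call from fio1 (0.0509), sod1 (0.0557), gpd3 (0.0883), ecl3 (0.0604), dcp1 (0.0685) and put4 (0.068). The call of str3 was lost without either wild type library (0.108 and 0.109), that of ftm1 without replicate 1 of the mutant (0.058), that of mfm2 without any 1 of the 4 libraries (0.0842 to 0.569), and that of cdc14 without either wild type library or replicate 1 of the mutant. In these fits the lone library of a strain is assumed to vary like the other strain. With 1 experiment alone, which allows no test, 196 transcripts were past 1.5 times in experiment 2 and 300 in experiment 1, and 179 and 137 were past 0.66 times. Under limma-trend the glycolytic gene tdh1, at an unchanged log2 ratio of 0.44, had an adjusted p of 0.355, and mfm2 one of 0.119.

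The experiment numbers paired the samples in the authors' design but not in the values, since the deviations of the libraries of experiment 1 from their strain means had a correlation of −0.07. With no replicate block, 1419 transcripts were higher, 661 lower, 213 upregulated and 137 downregulated, and of the named transcripts only tlh1 (adjusted p = 0.13), mfm2 (0.171) and SPAC212.09c (0.368) lost their calls, while byr2 gained one (0.0349).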
